A study of Mus musculus with 182 samples.

Results

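The 43 heavy chain variable genes of the deposited table, which are all rows whose symbol starts with Ighv, were described over 182 single germinal centre B cells out of 17034 gene symbols. Each library was 1 cell from the spleen of C57BL/6 mice, taken 13 days after intraperitoneal NP(23)-KLH (100 μg) with 50% alum and 1 μg LPS, and all cells formed 1 group with no control group. Cells carrying CD3, CD4, CD8, CD11C or IgD were first depleted with beads. The sample labels give the sorted cells as NP+ besides B220+ Fashi GL7hi, while the series' design names B220, Fas and GL7 for the gate and NP-PE among the stains. No animal is named, so all cells count as 1 biological sample and no p-value was computed across them. Cells are named by the number in their column. NP is a small hapten, and KLH is the protein that carries it.

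The heavy chain of an antibody is made from a variable (V), a diversity, a joining and a constant segment. A heavy chain gene is made by joining 1 V segment to the others, and allelic exclusion keeps a cell from making chains from both alleles. A B cell is therefore known to make the heavy chain of 1 V gene. This concerns the chain, whereas the values here are of RNA. In C57BL/6 mice the response to NP is known for the gene Ighv1-72, also called V186.2, of the large Ighv1 (J558) subfamily. In the germinal centre the joined gene is mutated, and its constant region can be switched from IgM to IgG.

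Members of the Ighv1 subfamily resemble each other closely, and the likeness matters for reading every value here. The stretches that follow are bases 61 to 210 of the last exon, which holds most of the V segment, of Ighv1-72 and of the 5 members chosen from its relatives of at least 90% identity found beside it in at least 2 cells (Ighv1-55 is the relative of that kind not printed), and the aligned stretch of Ighv7-3, an unlike member. They were taken from the GENCODE transcripts of the GRCm38 build, all lie on the minus strand of chromosome 12, and are written 5′ to 3′. Capitals mark bases that differ from Ighv1-72 or have no partner in it.
Ighv1-72: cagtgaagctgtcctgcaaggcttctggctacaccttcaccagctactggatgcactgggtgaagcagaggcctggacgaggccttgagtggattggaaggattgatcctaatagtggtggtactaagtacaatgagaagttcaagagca
Ighv1-53: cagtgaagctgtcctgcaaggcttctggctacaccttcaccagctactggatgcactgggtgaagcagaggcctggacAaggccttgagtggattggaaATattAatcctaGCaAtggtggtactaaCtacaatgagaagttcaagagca
Ighv1-62-3: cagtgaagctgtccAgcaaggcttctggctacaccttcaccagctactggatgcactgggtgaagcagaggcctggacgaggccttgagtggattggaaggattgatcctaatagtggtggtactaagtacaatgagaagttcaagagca
Ighv1-64: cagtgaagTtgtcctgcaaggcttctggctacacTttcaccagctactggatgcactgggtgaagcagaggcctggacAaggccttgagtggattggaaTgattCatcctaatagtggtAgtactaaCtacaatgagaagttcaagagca
Ighv1-74: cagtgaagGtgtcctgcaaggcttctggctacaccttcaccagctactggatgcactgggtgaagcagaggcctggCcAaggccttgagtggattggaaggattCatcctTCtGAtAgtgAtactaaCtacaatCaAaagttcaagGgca
Ighv1-50: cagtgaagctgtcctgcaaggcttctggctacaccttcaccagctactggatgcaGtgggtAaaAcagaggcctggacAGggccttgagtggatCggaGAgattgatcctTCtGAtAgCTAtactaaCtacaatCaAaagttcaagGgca
Ighv7-3: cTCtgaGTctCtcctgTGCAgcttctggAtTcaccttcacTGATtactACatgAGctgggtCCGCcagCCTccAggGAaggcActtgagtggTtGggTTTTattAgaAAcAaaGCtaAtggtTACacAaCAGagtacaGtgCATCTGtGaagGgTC
The stretch of Ighv1-72 lies at chr12:115758079-115758228. In this window Ighv1-62-3 differed from it at 1 base, Ighv1-64 at 7, Ighv1-53 at 8, Ighv1-74 at 14 and Ighv1-50 at 20, and 61 of the 156 bases of Ighv7-3 differed or had no partner. Over the whole last exon, identity to Ighv1-72 was 99.0% for Ighv1-62-3, 96.1% for Ighv1-53 and Ighv1-64, 93.4% for Ighv1-74, 91.8% for Ighv1-50 and 63.4% for Ighv7-3. The median over the 42 other members was 85.9%. How the authors' counting split reads that fit several members is not given in the sources used here, so values of close relatives are uncertain, and reads of a mutated gene may fit a relative.

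The table held 39 of the 92 annotated Ighv1 genes and 4 of the 91 genes of the other 15 subfamilies, namely Ighv5-17, Ighv7-1, Ighv7-3 and Ighv14-2. The other 140 annotated Ighv genes were not analysed here, so shares of subfamilies hold among the 43 rows only. Of the 43 members, 21 had their closest relative among those 140 genes. The members lie between 113859149 and 116000461 on chromosome 12, and their last exons are 304 to 317 bases long, so values of different members refer to nearly the same length.

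The columns of the table form 2 sets, cells 1 to 96 (set 1) and cells 97 to 182 (set 2), found by exactly equal values above 0. Every cell of set 1 shared such a value with cell 1 in at least 0.474 of the rows, and cells of set 2 in 0, and the sets were handled as batches of unknown origin. The number of genes at a value of at least 1 was 1873 to 1946 per cell in set 1 and 995 to 1741 in set 2. Values are normalized signals on a linear scale, and the read depth of a cell is unknown. A gene was called detected at a value of at least 1, and the lowest value of any member in either set, its floor, was at most 0.115. Of the B cell markers, Cd79b was detected in 98.9% of cells, Ms4a1 in 96.7%, Cd79a in 91.8% and Pax5 in 33.5%. At least 2 of 6 germinal centre markers were detected in 160 cells.

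Most members were rare across cells. Of the 43, 42 were detected in at least 1 cell, against 88.6% of all genes, but only Ighv1-72 reached 10% of cells, against 31.8% of all genes. The median member was found in 2 cells, and the median gene of the table in 7. There were 16 members in 1 cell each and 25 in 2 to 8 cells. Ighv1-13, which is annotated as a pseudogene, was seen in 0 of 182 cells, with an exact 95% upper bound of 2.01% (the limit of 3 counts in 182 is 1.65%).

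**Figure D1:**
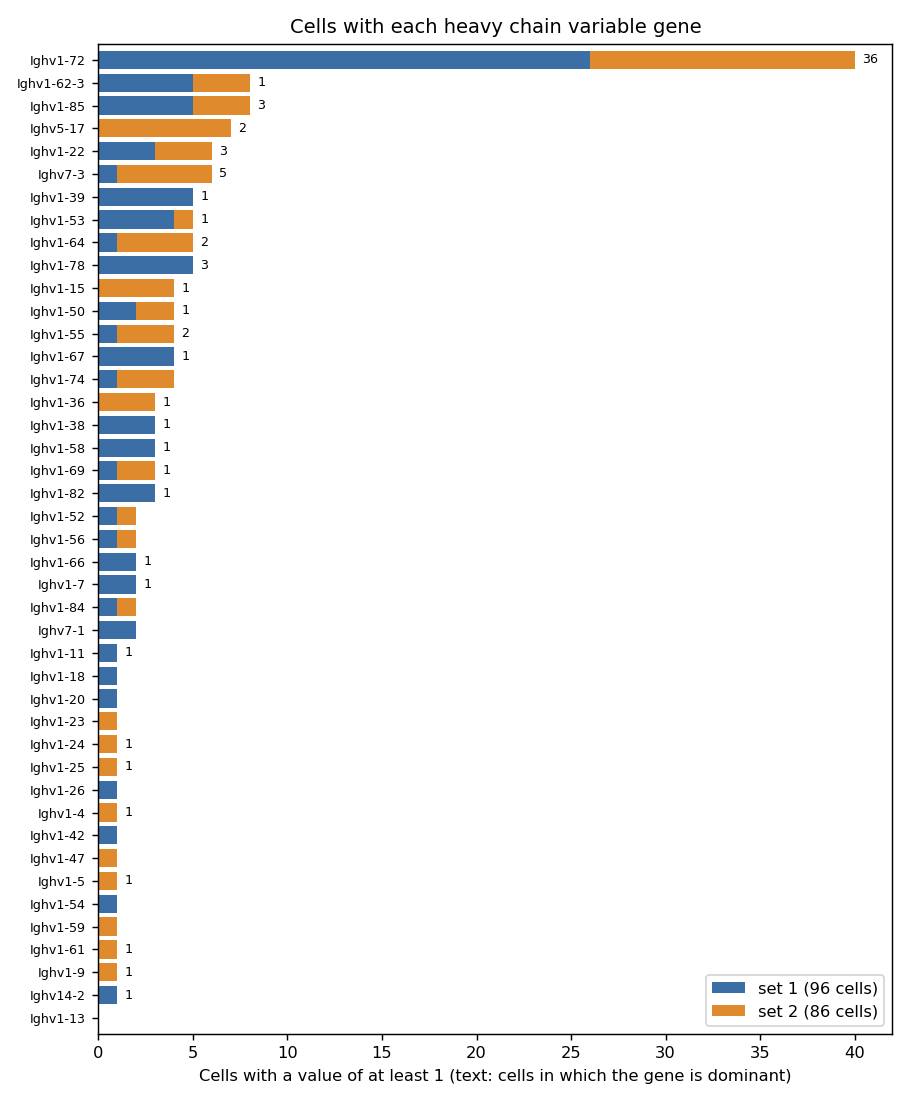
Number of cells with each Ighv gene at a value of at least 1 (horizontal axis), split by set of columns, with the number of cells in which the gene is dominant printed at the bar end. Ighv1-72 is found in 40 cells, and no other member in more than 8.

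Ighv1-72 (chromosome 12, 115757984 to 115758461, an IG_V_gene in the annotation) was present in 40 of 182 cells (22.0%, exact 95% interval 16.2 to 28.7). Its values in these cells ran from 1.48 through a median of 319 to 6596. It was found in 26 cells of set 1 (27.1%) and 14 of set 2 (16.3%), with medians of 200.1 and 1053, and all intervals here cover counting error over cells only. Next came Ighv1-62-3 and Ighv1-85 with 8 cells each (4.40%, 1.92 to 8.48), Ighv5-17 with 7 (3.85%, 1.56 to 7.76), and Ighv1-22 and Ighv7-3 with 6 each (3.30%, 1.22 to 7.04). These intervals overlap, so the order after Ighv1-72 is not resolved.

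Although rare, members were high where they were present. Among members detected in 1 to 8 cells, 20 of 41 had a highest value of at least 100 (48.8%), and the same held for 17.3% of all 7237 genes found in 1 to 8 cells. The median highest value was 93.9 for these members and 11.2 for all such genes. The 158 detections nevertheless covered a wide range, with 63 at a value of at least 100 and 61 between 1 and 10. In 21 of the 101 cells with a member, the highest member was among the 100 highest genes of the cell.

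Members also divided between the sets. Of the 25 members found in 2 to 8 cells, 12 (48.0%) were found in 1 set only, against 21.4% of all 4670 genes with 2 to 8 cells. Those of set 1 only were 9, namely Ighv1-39, Ighv1-78, Ighv1-67, Ighv1-38, Ighv1-58, Ighv1-82, Ighv1-66, Ighv1-7 and Ighv7-1. Those of set 2 only were 3, namely Ighv5-17, Ighv1-15 and Ighv1-36. Whether the sets match animals or capture runs is not given, and a gene's floor can differ between sets, so clones, animals and processing cannot be told apart here.

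A single member led in nearly every cell that had Ighv signal. The dominant gene of a cell was the member with over 50% of its summed Ighv values, where this sum was at least 10. Of 78 cells with such a sum, 77 had a dominant gene (98.7%, 93.1 to 99.97), and it held a median of 99.2% of the sum. In 58 cells it held over 95% and in 66 over 80%, while in 4 cells the highest member held between 40 and 60%. The value of the dominant gene ran from 5.24 through a median of 284 to 36839.7. The exception was cell 2, where Ighv1-39 stood at 5.14 and Ighv7-1 at 5.04. In a cell with only 1 detected member, dominance follows from the rule, as undetected members add little to the sum. Only cells with 2 or more detected members could lack a dominant gene, and 36 of all 182 cells had 2 or more. Among these 36, cells 50 and 180 had sums under 10 (8.27 and 8.44) and were not among the 78. The share of 98.7% is thus informative only for the rest of the 36.

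**Figure D2:**
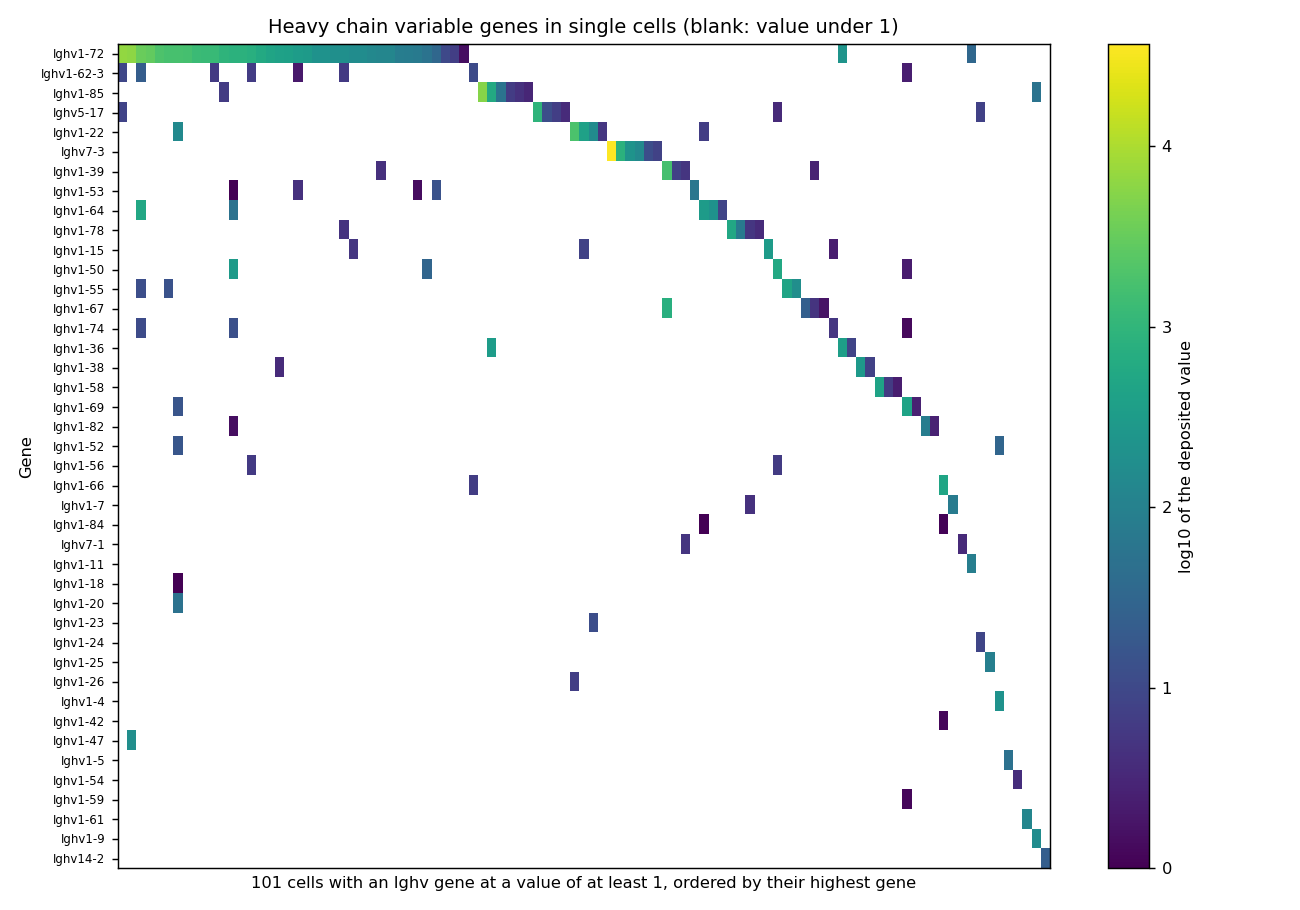
Deposited values (colour, log10 scale) of the 42 detected Ighv genes (rows) in the 101 cells with at least 1 of them (columns), with cells ordered by their highest gene. Most columns hold 1 filled square, and the block of Ighv1-72 at the upper left is the widest.

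Ighv1-72 was the dominant gene in 36 of these 77 cells (46.8%, 35.3 to 58.5). It led in 24 of 42 cells of set 1 (57.1%, 41.0 to 72.3) and in 12 of 35 of set 2 (34.3%, 19.1 to 52.2), and the intervals of the sets overlap. The other 41 cells were spread over 28 genes, 21 of which were dominant in 1 cell each, out of 29 dominant genes in all. All Ighv1 genes together were dominant in 69 cells (89.6%, 80.6 to 95.4). Their share was 95.2% in set 1 and 82.9% in set 2. As the table holds 39 Ighv1 rows among 43, this share is set in part by the rows.

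Ighv7-3 (chromosome 12, 114153180 to 114153644) was second, as the dominant gene of 5 cells. Its 6 detected values were 36839.7 in cell 10, 832 in cell 120, 223 in cell 146, 141 in cell 158, 11.9 in cell 168 and 7.82 in cell 176. The first of these stands far above the rest and is the second highest value of any gene in that cell. GENCODE lists Ighv7-3 as a gene and RefSeq as a pseudogene. No cell held both Ighv7-3 and Ighv1-72, but 6 cells are too few to read this as exclusion. Other rare members also shared no cell with Ighv1-72, among them Ighv1-67, found in 4 cells.

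Ighv1-85, Ighv1-22 and Ighv1-78 were dominant in 3 cells each. Ighv1-85 (116000028 to 116000461) led with 5481 in cell 68, 600 in cell 151 and 56.0 in cell 105, and its other 5 values ran from 3.07 to 54.8. Ighv1-22 (114746273 to 114746706) led with 1898 in cell 81, 417 in cell 132 and 163 in cell 153. Its remaining values were 146 in cell 17, where Ighv1-72 led, 6.72 in cell 113 and 5.29 in cell 89. Ighv1-78 (115868773 to 115869227) led with 545 in cell 6, 76.7 in cell 94 and 5.24 in cell 56. In cell 56 it barely passed the rule, with 50.4% of a sum of 10.4, and Ighv1-7 stood close below it at 4.51. In each of these genes a cell or a few stood far above the others, so the number of cells and the level describe different things.

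Ighv5-17, Ighv1-64 and Ighv1-55 were dominant in 2 cells each. Ighv5-17 (113859149 to 113859670), the sole Ighv5 row, reached 932 in cell 99 and 12.6 in cell 163, and its other 5 values lay between 3.56 and 8.42. Ighv14-2 was dominant in 1 cell at a value of 22.9, and Ighv7-1, found in 2 cells, in none. The rows outside Ighv1 thus gave 8 of the 77 dominant genes (10.4%, 4.59 to 19.4).

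Along the locus, annotated Ighv genes were ordered from the side of the constant genes and split into 3 stretches of 61 genes. The stretch from 113572927 to 114314618, nearest to the constant genes, held 4 rows and 8 dominant cells. The middle stretch (114320030 to 114937544) held 18 rows and 14 dominant cells over 12 genes, and the far stretch (114945950 to 116010093) held 21 rows and 55 dominant cells over 14 genes. Without the 36 cells of Ighv1-72, the far stretch had 19 dominant cells. The number of rows differs between stretches, so the counts are not usage rates.

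Many cells showed no member at all. At least 1 was present in 101 of 182 (55.5%, 48.0 to 62.8), which is 58 of 96 for set 1 and 43 of 86 for set 2. Of the 81 cells without one, 75 still had summed heavy chain constant values of at least 10, as had 94 of the 101 cells with one. The median constant sum was 249 in cells without a member and 283 in cells with one, and the ranges overlapped (1.12 to 2703 and 1.04 to 4065). Cells without a member had fewer genes above their floor, with medians of 2522.5 against 2692 in set 1 and 1926 against 2259 in set 2. The part of these numbers, or of the genes not in the table, in the missing V signal was not tested.

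The summed Ighv value followed the summed constant value only loosely. Across all 182 cells, on log2(value + 1), Spearman's rho was 0.13 and Pearson's r was 0.20, or 0.12 and 0.20 without the 2 cells farthest from the median Ighv sum. In the 101 cells with a member, rho was 0.32, with 0.21 in set 1 (58 cells) and 0.50 in set 2 (43 cells). These cells share their library chemistry and the normalization of their set, and the values are given as a description.

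In 36 of 182 cells (19.8%, 14.3 to 26.3) at least 2 members were detected, and the share was 19.8% in both sets. At a detection value of 10 it was 7.69% (14 cells). There were 25 cells with 2 members and 11 with 3 or more, the highest number being 6, in cells 17 and 51. The second member was mostly far below the first, at a median of 5.46% of it, and in 20 cells it was under 10%. At least 2 of the 4 T cell markers in the table were found in 1 of the 36 cells and in 1 of all 182. Cd3d and Cd4 were found in 0 cells, and the summed level of the 4 was at most 45.1 in the 36. At least 2 of 6 myeloid markers were found in 1 of the 36, with a summed level of at most 7.39, and in 7 of all 182. Both erythroid markers in the table, Hbb-bt and Hbb-bs, were found together in 0 of the 36 and in 1 of all 182. Their summed level in the 36 reached 425. The part of such RNA in the further members was not tested. Cells with 2 or more members had more genes above their floor than cells with 1 in set 1 (medians 2860 and 2669) and not in set 2 (2228 and 2278.5). Whether 2 cells in a chamber gave any of these libraries was not tested, and no doublet caller was run. Per the labels' protocol, cell separation was scored by eye on the chip.

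**Figure D3:**
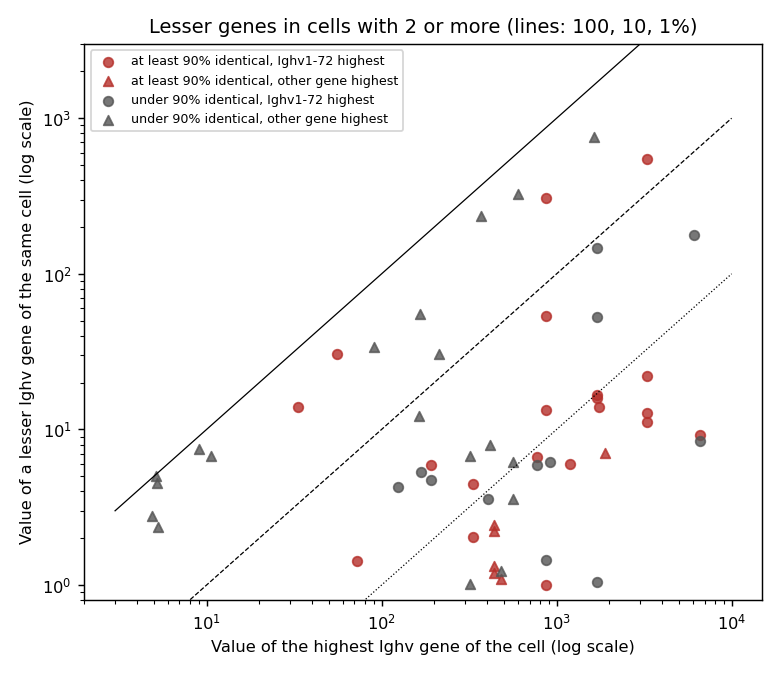
Value of each lesser Ighv gene against the highest Ighv gene of the same cell in the 36 cells with 2 or more (both axes log scale, 57 points). Colour gives the identity of both genes over the last exon, shape whether Ighv1-72 was highest, and the lines mark 100, 10 and 1% of the highest value.

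Lesser members were often close relatives of the leading one, mainly where Ighv1-72 led. Of 57 lesser values, 26 (45.6%) belonged to a gene at least 90% identical to the highest gene of the cell, while 11.1% of all 903 pairs of members are that alike. Of these 26, 20 stood below a leading Ighv1-72, which had 32 of the 57 lesser values. Ighv1-72 has more such relatives than most, with 10 of the 42 other members that alike to it. The median identity was 88.9% between the highest and the lesser genes and 83.9% over all pairs. The pair found in most cells was Ighv1-62-3 with Ighv1-72, in 6 cells, followed by Ighv1-53 with Ighv1-72 in 4. A further 8 pairs were found in 2 cells each, all but Ighv1-39 with Ighv1-67 (84.9%) joining genes over 90% identical. Of 96 pairs counted cell by cell, 90 (93.8%) joined genes of 1 subfamily, against 82.2% of all pairs of members. Pairs of 1 cell are not independent, and cells with many members weigh most. Cells 17 and 51 with 6 members each and cells 101 and 174 with 5 each held Ighv1 members only.

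Ighv1-62-3 (115460999 to 115461485) shows the pattern best, as the gene nearest to Ighv1-72. Its 8 values were 22.1, 10.5, 9.25, 6.60, 6.00, 5.93, 2.44 and 2.03. In 6 of these cells Ighv1-72 was present, at 3304, 6596, 769, 1198, 191 and 332, so that Ighv1-62-3 stood at 0.140 to 3.11% of it. The exceptions were cell 9, where Ighv1-62-3 led at 10.5, and cell 101, where it stood at 2.44 beside Ighv1-69 at 440. In cell 101 the other lesser genes, Ighv1-50, Ighv1-59 and Ighv1-74, were 97.0%, 97.4% and 96.1% identical to Ighv1-69.

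Ighv1-53 (115158403 to 115158835) had 5 values, of which 4 were beside Ighv1-72. They were 1.00, 1.42, 4.47 and 14.0, where Ighv1-72 stood at 869, 72.6, 332 and 33.5. Its remaining value, 65.0 in cell 73, stood alone and was dominant there. So a relative was seen both as a minor companion and as the leading gene of a cell.

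Over all 10 members at least 90% identical to Ighv1-72, 20 of 37 detections (54.1%) fell in the 40 cells with Ighv1-72, against 14 of 81 (17.3%) for the 32 members below 90%. Of the 40 cells with Ighv1-72, 12 (30.0%, 16.6 to 46.5) held at least 1 of the 10 relatives. Of the 142 cells without it, 13 did (9.15%, 4.97 to 15.1). The shares were 30.8% and 4.29% in set 1 and 28.6% and 13.9% in set 2, where the intervals overlap. For the 32 other members the shares were 30.0% with Ighv1-72 and 37.3% without. The median of Ighv1-72 was 208 in the 21 cells where it stood alone as the highest gene and 769 in the 17 where others were present. The ranges overlapped widely (1.48 to 2985 and 33.5 to 6596). Within sets the medians were 178 and 407 in set 1 (14 and 11 cells) and 470 and 2522 in set 2 (7 and 6 cells). The part of shared reads in these counts was not tested.

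**Figure D4:**
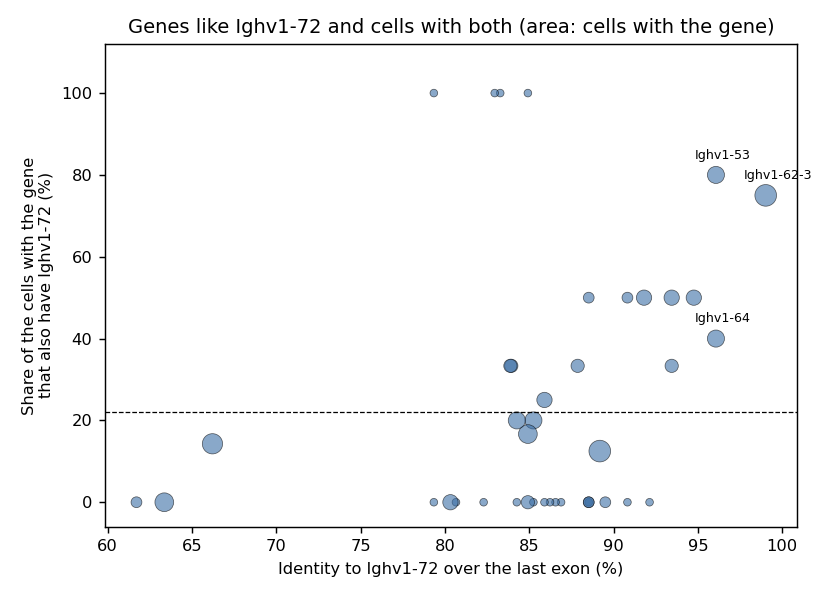
Share of the cells with a gene that also have Ighv1-72 (vertical axis) against the identity of that gene to Ighv1-72 (horizontal axis), for the 41 other detected members. Point area gives the number of cells with the gene, and the dashed line marks the 22.0% of all cells that have Ighv1-72. Ighv1-53 (80.0%) and Ighv1-62-3 (75.0%) lie above it, and the points at 100% are genes found in 1 cell each.

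In 16 cells the second member reached at least 10% of the first, and some of these pairs were high and unlike. Cell 82 held Ighv1-39 at 1626 and Ighv1-67 at 759, which are 84.9% identical and lie 689 kb apart. Cell 151 held Ighv1-85 at 600 and Ighv1-36 at 328 (85.9% identical), and cell 166 held Ighv1-36 at 368 and Ighv1-72 at 234 (83.9%). Cell 140 held Ighv1-9 at 165 and Ighv1-85 at 54.8 (87.5%), and cell 35 held Ighv1-11 at 90.7 and Ighv1-72 at 34.0 (79.3%). In 4 other cells the second member was a relative of Ighv1-72 of over 90% identity. Those were cell 51 with Ighv1-50 (305 beside 869), cell 174 with Ighv1-64 (546 beside 3304), cell 70 with Ighv1-50 (30.6 beside 55.3) and cell 178 with Ighv1-53 (14.0 beside 33.5). These 9 cells were named after their values were seen.

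The variable gene was then set against the isotype, which was read from the constant genes by the same rule as the dominant V gene. The depletion with anti-IgD acts on cells with surface IgD, so the count for Ighd is set in part by the sort. Of the 77 cells with a dominant V gene, 74 had such a constant gene. It was Ighm in 54, Ighd in 1 and a switched gene in 19 (25.7%, 16.2 to 37.2). Of these 19, 3 had Ighg1, 6 Ighg2b, 7 Ighg2c and 3 Ighg3. Of the 72 cells with no member and a constant gene, 18 were switched (25.0%, 15.5 to 36.6). Among these 18, Ighg1 led in 9 and Ighg2b in 5.

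Cells led by Ighv1-72 were switched in 11 of 35 (31.4%, 16.9 to 49.3), 5 of them to Ighg2b. Cells led by another Ighv1 gene were switched in 7 of 31 (22.6%, 9.59 to 41.1), 4 of them to Ighg2c. All Ighv1 cells together gave 18 of 66 (27.3%, 17.0 to 39.6). Cells led by a gene outside Ighv1 were switched in 1 of 8 (12.5%, 0.316 to 52.7), the Ighv7-3 cell 158 with Ighg3. All these intervals overlap, so no difference in switching between V genes was detectable with these numbers of cells. The share for Ighv1 was 32.5% in set 1 and 19.2% in set 2.

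**Figure D5:**
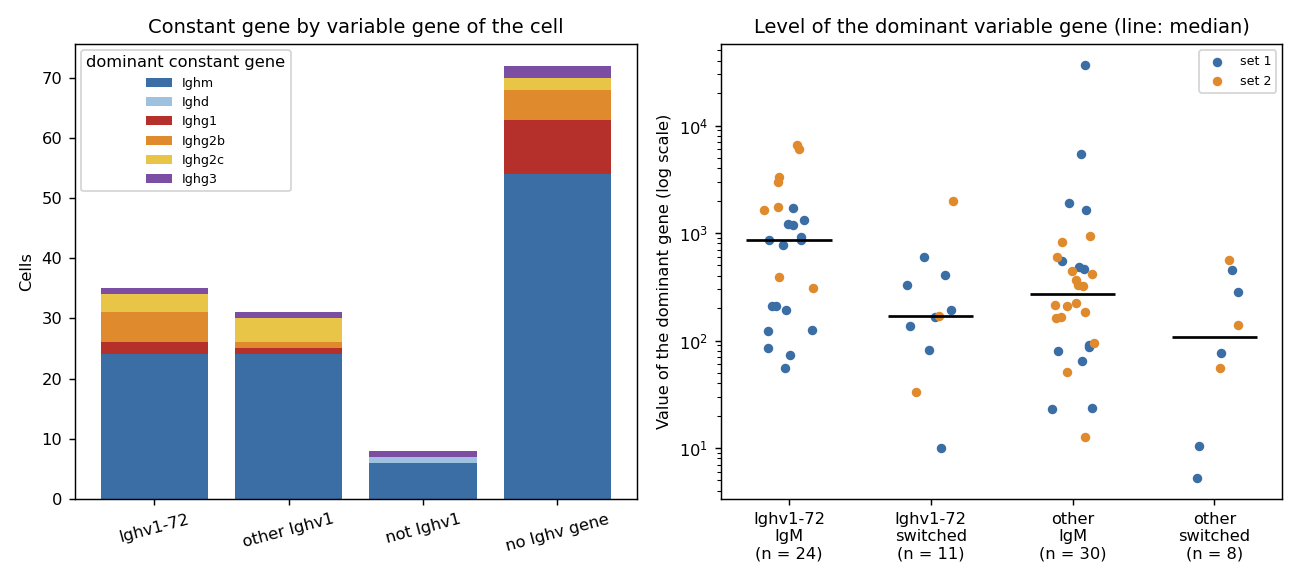
Left, number of cells by dominant constant gene for cells led by Ighv1-72, another Ighv1 gene, a gene outside Ighv1 or no member. Right, value of the dominant V gene (log scale) in IgM and switched cells led by Ighv1-72 or by any other member, each point a cell coloured by set, with the median as a line, which is 863 in IgM and 168 in switched cells of Ighv1-72.

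The level of the V gene differed between isotypes in its median, with overlapping ranges. In the 24 IgM cells led by Ighv1-72 it ran from 55.3 through a median of 863 to 6596, and in the 11 switched cells from 10.1 through 168 to 1983. The medians were 489 and 178 in set 1 (16 and 8 cells) and 2363 and 168 in set 2 (8 and 3 cells). In cells led by other Ighv1 genes they were 267 (24 IgM cells) and 76.7 (7 switched cells). In set 2 the order for these other genes was the opposite, with 212 in 13 IgM cells and 311 in 2 switched cells. The median constant sums of the Ighv1-72 cells were 359 and 293. No test across cells was made, as they come from 1 sample.

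Genes that act on the antibody locus were described in the same cells from a list of 35, of which 34 were in the table. The receptor genes Cd79a and Cd79b, which encode the signalling partners of the surface antibody, were found in 91.8% and 98.9% of cells. Of 13 transcription factor genes for the locus, 8 were found in over 50% of cells, among them Pou2af1, the octamer factor partner known as OCA-B, in 71.4% and Ebf1 in 76.4%. Of 6 genes for recombination and the surrogate light chain, only Vpreb3 passed 50% (60.4%), and the recombinase genes Rag1 and Rag2 were each in 4.40%. Of 4 secretion genes, only Igj, the joining chain, did (55.5%), and the plasma cell genes Prdm1 and Sdc1 were each in 1.10%.

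The same genes were compared between cells with and without a member. Of the 25 list genes found in at least 10% of cells, 0 had a share at least 10 percentage points higher in cells with a member, against 9.56% of all 5408 such genes. A share at least 10 points lower, seen for 5.36% of those 5408 genes, was found for Ikzf3 and Pou2f2 within the list. The median difference was -0.43 points for the list and 0.77 for all genes. Ikzf3, which encodes the zinc finger factor Aiolos, was in 64.4% of cells with a member and 81.5% without. Pou2f2, which encodes the octamer factor OCT2, was in 64.4% and 77.8%. Within sets the shares with and without were 67.2 and 89.5% (set 1) and 60.5 and 74.4% (set 2) for Ikzf3, and 70.7 and 78.9% and 55.8 and 76.7% for Pou2f2. No test was made.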

How the data were processed

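The deposited values are a signal per gene and cell, normalized by the authors and not on a log scale. TopHat2 2.0, Cufflinks 2.2, Cuffdiff and mm10 are named per the submitters' processing notes; for the annotation, starting unit and normalization nothing is given in the sources used here. The table had 17035 rows, and the second row of 1 repeated symbol was dropped. The members, the lists and the alternatives were chosen with earlier results of these data known. Each cell is 1 library of 1 group, so shares carry exact Clopper-Pearson 95% intervals for counting error and no test was run. Detection was a value of at least 1, dominance over 50% of a sum of at least 10, and log2 used a pseudocount of 1. Every Ighv row could be named, with values for those dominant in at least 3 cells or detected in at least 10% of cells; others named were picked after their values were seen. Positions and sequences came from GENCODE M21 (GRCm38, the build of mm10), in which all 43 members matched, and pairs were aligned globally with Biopython 1.88. Counting functions were tested on simulated data. Alternatives changed the detection value, dominance share, minimum sum, set, pseudocount and treatment of relatives. Analyses ran in Python 3.11.15 with pandas 2.3.3 and SciPy 1.17.1. Some genes of the fixed lists are not reported here. The 3 planned light chain results were not run, since 0 light chain rows were in the table used.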

Additional observations from a re-analysis of the deposited data

How the results depend on the processing

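Of 88 alternative values for 10 results, 74 stayed within the 95% interval of the reported value (or within 1.5 times a count). Only the correlation of Ighv and constant sums could change sign, and it did not, while shares and counts cannot. Some of the 74 could hardly move. A changed pseudocount leaves Spearman's rho at 0.127, and division by exon length changes little at lengths of 304 to 317 bases. At a detection value of 10, 41.2% of cells had a member, 7.69% had 2 or more, and 100% of pairs were of 1 subfamily. Without Ighv1-72 (an alternative added after seeing the data) these first shares were 44.0% and 13.2%. Set 2 alone detected 26 members. The share of pairs within a subfamily was 98.2% in set 1 and 83.9% with genes at least 90% identical merged, also added after seeing the data. A dominant gene was found in 84.6% of cells at dominance over 80%, and in 100% at a minimum sum of 100, with the lowest value of each gene subtracted, and in set 2. Ighv1-72 was dominant in 34.3% of cells with a dominant gene in set 2. The switched share outside Ighv1 was 0% in the 2 such cells of set 1. Values within a set or with genes merged or left out rest on fewer cells or genes. With the lowest value subtracted, 77 of 77 cells had a dominant gene. The subtraction takes out the floors, which summed to 0.654 in set 1 cells with every member at its floor, such as cell 5. Cells 2 and 56, both of set 1, had Ighv sums of 10.8 and 10.4, close to the minimum of 10. Their highest members held 47.5% and 50.4%, close to the dominance share of 50%. No paired analysis was possible because there is 1 group. Read depth per cell is unknown, so an undetected member is not thereby absent.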

Other observations

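Rows annotated as pseudogenes led some cells. Ighv1-38, a pseudogene in GENCODE and RefSeq, stood at 284 in cell 59, whose dominant constant gene was Ighg2b, and held 99.8% of the Ighv sum. Its closest annotated relative, Ighv1-27, is also a pseudogene and 92.4% identical over the last exon. Ighv1-25, another pseudogene in both, stood at 93.9 in cell 167, an IgM cell, and held 99.2% of the sum. Its closest relative was the pseudogene Ighv1-17 (93.4% identical), and its closest relative in the table was Ighv1-18 (93.1%).

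Some cells had a high V gene with little constant signal. In cell 162 Ighv1-72 stood at 470 while the summed constant values were 8.95, and in cell 156 Ighv1-61 stood at 125 with a constant sum of 6.77. Cell 151 held Ighv1-85 at 600 and Ighv1-36 at 328 with a constant sum of 27.0. In cell 10, by contrast, Ighv7-3 at 36839.7 stood beside a constant sum of 357.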
